A study of Mus musculus with 48 samples.

Results

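The genes described here are 45 genes of DNA replication and deoxynucleotide synthesis, chosen by gene symbol from a list of the replication machinery and all found in a table of 55487 genes. They were read in RNA-seq and in ribosome footprint libraries of Ba/F3, an interleukin 3-dependent mouse line described as pro-B cells. The study edited the line with CRISPR-Cas9 and took 3 single clones of each of 8 genotypes. Apart from WT, these were heterozygous loss of a large-subunit protein gene (Rpl5+/-, Rpl11+/- or Rpl22+/-), homozygous loss of Rpl22 (Rpl22-/-), and missense changes in a large-subunit gene (Rpl10 R98S) or a small-subunit gene (Rps15 H137Y or Rps15 P131S). Each of the 24 clones gave 1 RNA and 1 footprint library, so that n = 3 clones stands behind every mean. All clones, WT included, grew in 10% serum with 1 ng/ml interleukin 3 and received 0.1 mg/ml cycloheximide for 1 min before lysis. A group is a set of clones that were each harvested once, so p-values measure the spread between clones. The sample titles give the 3 missense changes as homozygous, Rps15 P131S in its footprint titles only.

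DNA replication starts where the origin recognition complex (ORC), with Cdc6 and Cdt1, loads the MCM helicase onto DNA, a step that geminin (Gmnn) blocks by binding Cdt1. Cdc45 and the GINS complex turn the loaded helicase on, the RPA complex coats the single strands, polymerase alpha with primase starts each strand, and polymerases delta and epsilon extend it with the sliding clamp PCNA, which the RFC complex loads. Fen1 and Lig1 join the Okazaki fragments, while ribonucleotide reductase (Rrm1, Rrm2), thymidylate synthase (Tyms), dUTPase (Dut) and thymidine kinase (Tk1) supply the nucleotides. Many of these genes are known targets of the E2F transcription factors and are transcribed around entry into S phase.

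Promoter letters are shown because several of the genes moved in the same direction in the Rps15 clones. RefSeq promoters (build GRCm38.p6, 300 bases each) were found for 37 of the 45 genes. The E2F letters searched were TTTCCCGC, TTTCGCGC, TTTGCCGC and TTTGGCGC on both strands, and overlapping hits were counted separately. They stood in the promoters of 14 of the 37 genes (37.8%), against 2.6% of the 27025 symbols of the promoter table. The letters CCAAT, on either strand, stood in 23 of the 37 (62.2%), against 41.1% of all symbols. Below are 100-base stretches upstream of the start site, from genes that rose in RNA or footprints (Mcm5, Mcm6, Cdc6, Pcna) and genes that fell (Gins3, Pold2) in Rps15 P131S clones, with E2F letters in capitals and other bases in lower case, 5′ to 3′ on the gene's strand.
Mcm5 (plus strand, chr8:75109312-75109411): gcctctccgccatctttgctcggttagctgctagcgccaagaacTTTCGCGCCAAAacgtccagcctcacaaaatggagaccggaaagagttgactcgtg
Mcm6 (minus strand, chr1:128359731-128359830): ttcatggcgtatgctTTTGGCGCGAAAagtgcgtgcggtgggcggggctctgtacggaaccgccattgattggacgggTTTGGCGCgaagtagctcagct
Cdc6 (plus strand, chr11:98907967-98908066): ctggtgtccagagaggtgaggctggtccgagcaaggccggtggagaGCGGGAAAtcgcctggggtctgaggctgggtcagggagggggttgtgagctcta
Gins3 (plus strand, chr8:95633459-95633558): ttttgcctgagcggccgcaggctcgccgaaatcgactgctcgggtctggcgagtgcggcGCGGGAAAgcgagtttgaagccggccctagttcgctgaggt
Pcna (minus strand, chr2:132253181-132253280): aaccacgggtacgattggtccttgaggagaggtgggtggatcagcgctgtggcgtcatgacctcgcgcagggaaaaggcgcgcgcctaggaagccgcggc
Pold2 (minus strand, chr11:5877664-5877763): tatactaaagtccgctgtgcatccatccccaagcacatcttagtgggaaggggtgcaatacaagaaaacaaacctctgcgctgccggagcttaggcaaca
The Mcm5 and Mcm6 stretches each hold a longer run in which a hit on one strand overlaps a hit on the other, and the Mcm6 stretch holds a further hit closer to the start site. The Gins3 stretch also holds a hit, although Gins3 RNA fell, and the Pcna and Pold2 stretches hold none. The Cdc6 and Pold2 stretches lie within the spans of their genes (chr11:98907709-98923942 and chr11:5872180-5878256). Each is upstream only of the start site of the promoter shown. RefSeq gives a further Pold2 promoter (chr11:5878207-5878506), which holds no E2F letters and 3 CCAAT hits. Of the 14 genes with these letters, 5 rose and 1 fell in RNA in Rps15 P131S, and of the 23 without them 7 rose and 2 fell, where 23.7% of all genes were higher and 23.4% lower. Without P131S clone 20, 1 of the 14 rose (Mcm6) and 1 fell (Gins3), and of the 23 others 5 rose and 5 fell. That fit passed 38.4% of all genes (2447 of 13081 higher, 2570 lower). In H137Y RNA 2 of the 14 rose and 2 fell, and 3 of the 23 rose and 8 fell (all genes 21% and 20%). In P131S footprints 5 of the 14 rose, and 6 of the 23 rose and 1 fell (all genes 8.42% and 8.28%). Without clone 20 these were 2, 4 and 1 (all genes 9.37%). In H137Y footprints 2 of the 14 rose, and 2 of the 23 rose and 2 fell (5.22% and 6.44%). These matches describe letters and do not show that a factor binds there.

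The libraries held 13029073 to 38258559 counts for RNA and 15598994 to 72044439 for footprints, and the 45 genes took 0.384% to 0.495% of the RNA counts and 0.723% to 0.976% of the footprint counts. Every one of the 45 passed the filter on low counts in both assays, and the lowest count of any in any library was 143. Of the markers that define pro-B cells, Pax5, Ebf1, Vpreb1, Igll1, Rag1 and Rag2 were at or near 0 in RNA in all clones (at most 0.301 CPM, counts scaled for library size), while Ptprc was at 167 to 302 CPM. The 3 interleukin 3 receptor genes summed to 876 to 1039 CPM in WT, 2234 to 2844 CPM in Rps15 P131S and 1421 to 2511 CPM in Rps15 H137Y, and also lay above WT in Rpl5+/- (1278 to 1337), Rpl11+/- (1071 to 1945) and Rpl22+/- (1149 to 1495). The 4 mast cell markers summed to 15.9 to 46.3 CPM in WT, 98.7 to 278 CPM in Rps15 P131S and 27.3 to 122 CPM in Rps15 H137Y. In Rpl5+/-, Rpl11+/- and Rpl22+/- they summed to 50.8 to 104 CPM. Over all clones, Cpa3 ran from 7.77 to 239 CPM (median 56.1) and Mcpt8 from 0 to 41.1 (median 0.147). Fcer1a reached at most 0.673 CPM and Kit was at 0 in every clone, so these sums do not show a rise of all 4 markers. The part of the receptor genes or of these markers in the results below was not tested. RNA of the edited gene averaged 67.2% of WT in Rpl5+/-, 64.1% in Rpl11+/- and 72% in Rpl22+/-. In the Rpl22-/- group, Rpl22 footprints were at 10.7% and 12.4% of WT in clones 649 and 776 and at 60.5% in clone 30, close to the 58.7% of Rpl22+/-, so the library labelled Rpl22-/- clone 30 goes against its label. The level of Rps15 is no check of the missense labels. Its RNA was at 62.8%, 126% and 134% of WT in P131S clones 24, 63 and 20 and at 127%, 56.6% and 60.5% in H137Y clones 16, 6 and 2, all outside the WT range of 1432 to 1455 CPM.

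Rps15 P131S clone 20 stood apart in these genes. In RNA it was the highest of all 24 clones for 29 of the 45 genes (64.4%), against 16.7% of all genes tested, and in footprints for 19 (42.2%), against 9.73%. Its median over the 45 genes was 0.28 above the WT mean in RNA on the log2 scale, where clones 24 and 63 were at 0.02 and 0.00. Counts over the 45 genes in RNA and footprints of Rps15 P131S are given with and without it.

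More of the replication genes changed in the Rps15 genotypes than in the other 5, as did more of all genes (heat map of changes by gene and genotype). A gene is counted as changed where its p from edgeR's quasi-likelihood test, adjusted over all genes by Benjamini-Hochberg, is below 0.05, and the share of all genes that pass is the background. In RNA of Rps15 P131S, 14 genes rose and 3 fell, against backgrounds of 23.7% of all genes higher and 23.4% lower (47% in either direction). In RNA of Rps15 H137Y, 6 rose and 10 fell, against 21% higher and 20% lower (41% in either direction). The shares of the 45 genes that changed, 37.8% and 35.6%, were below these backgrounds, and in Rps15 P131S 31.1% rose and 6.67% fell (median log2 change 0.10, all genes -0.01). Without clone 20, 7 rose and 6 fell in Rps15 P131S and the median was 0.02, with 38.4% of all genes changed. The same WT clones serve every comparison with WT.

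In footprints of Rps15 P131S, 12 genes rose and 1 fell, against 8.42% higher and 8.28% lower among all genes (16.7% in either direction). The median log2 change of the 45 was 0.26, that of all genes -0.04, and 36 of the 45 were positive. Without clone 20, 7 rose and 1 fell (17.8% of the 45, all genes 9.37%), and the median was 0.20. In footprints of Rps15 H137Y, 5 rose and 2 fell, against 5.22% higher and 6.44% lower (11.7% in either direction), and the median was 0.11 (all genes 0.00), with 30 of the 45 positive. Rpl22+/- footprints had the same median (all genes -0.03) with 34 positive, and none passed in edgeR's test.

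**Figure D1:**
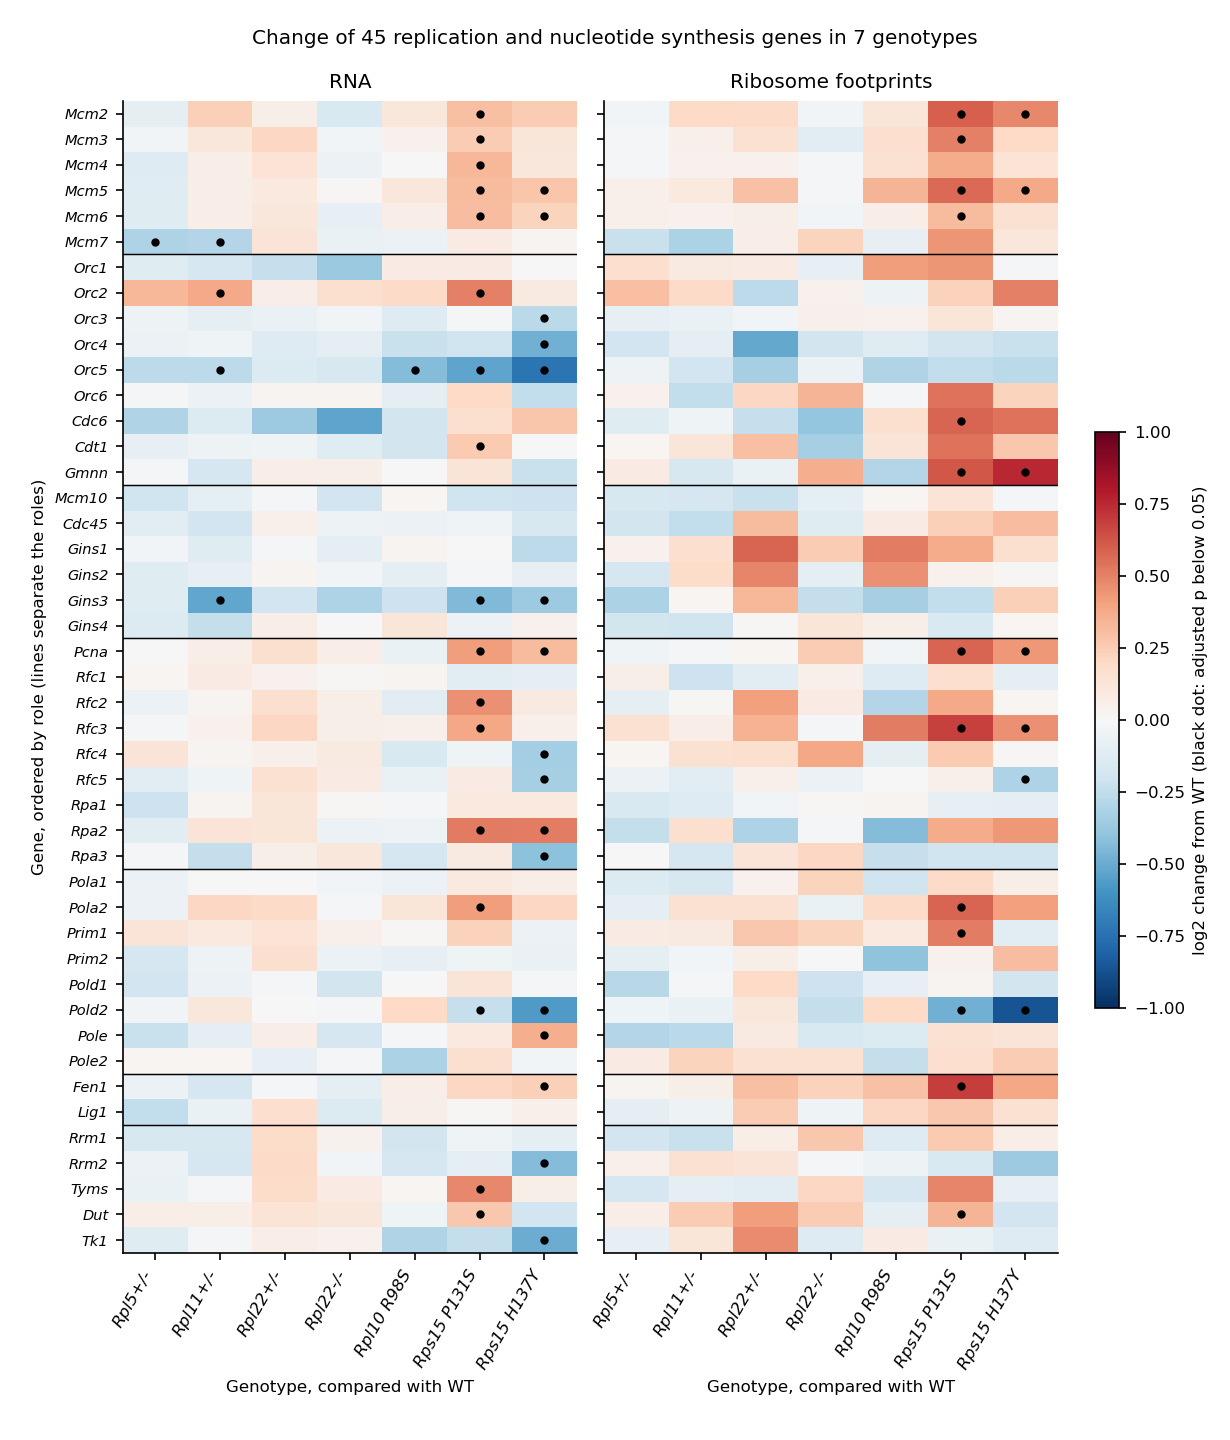
Heat map of the log2 change from WT of the 45 genes (rows, ordered by role) in 7 genotypes (columns), in RNA (left) and footprints (right); black dots mark an adjusted p below 0.05. Dots are concentrated in the 2 Rps15 columns, with 17 and 16 in RNA and 13 and 7 in footprints, and Orc4 and Orc5 are negative in all 7 genotypes in both assays.

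All 6 MCM helicase subunits had positive changes in both Rps15 genotypes and both assays. The same held in Rpl22+/-, by 0.06 to 0.21 in RNA and 0.04 to 0.29 in footprints. None of these Rpl22+/- changes passed in edgeR's test. In Rpl11+/- and Rpl10 R98S, 5 of the 6 were positive in each assay. In Rpl22-/- 1 was positive in each assay, and in Rpl5+/- 0 were in RNA and 2 in footprints. In Rps15 P131S 5 of the 6 rose in RNA (Mcm2 to Mcm6, by 0.25 to 0.33 on the log2 scale) and 4 in footprints (Mcm2, Mcm3, Mcm5, Mcm6). Among all genes 23.7% were higher in RNA and 8.42% in footprints. Mcm7 was at 0.08 in RNA (adjusted p = 0.391) and 0.44 in footprints (adjusted p = 0.0641). Without clone 20 all 6 changes were still positive in both assays. Of them 1 passed in RNA (Mcm6; all genes 38.4%) and 2 in footprints (Mcm2, Mcm5; all genes 9.37%). In Rps15 H137Y only Mcm5 (0.28, adjusted p = 0.0292) and Mcm6 (0.22, adjusted p = 0.0438) rose in RNA, where 21% of all genes were higher. Each of these calls was lost in 4 of 6 fits without 1 clone. Mcm2 and Mcm5 rose in H137Y footprints, where 5.22% of all genes were higher.

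Mcm2 RNA was 135, 149 and 140.4 CPM in WT, 158, 167 and 199 in P131S clones 24, 63 and 20 and 174, 171 and 159 in H137Y clones 16, 6 and 2. Both groups lay above WT, and only the first difference passed (0.30 ± 0.11 SE, adjusted p = 0.0323, against 0.25 ± 0.11, adjusted p = 0.0822). Mcm2 footprints were 216, 231 and 244 CPM in WT, 319.6, 324 and 406 in P131S and 351, 275 and 334 in H137Y. Every Rps15 clone was above every WT clone, by 0.60 ± 0.13 (adjusted p = 0.00377) and 0.48 ± 0.13 (adjusted p = 0.0243). Of the footprint calls, that in H137Y did not survive the removal of 1 clone in 5 of 6 cases and that in P131S survived each, while the P131S call in RNA was lost in 3.

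Mcm5 footprints were 279, 258 and 274 CPM in WT, 366, 345 and 495 in P131S and 366, 329 and 358 in H137Y. The groups did not overlap with WT, and the P131S change of 0.57 ± 0.12 (adjusted p = 0.00253) passed without any single clone, while the H137Y change of 0.38 ± 0.12 (adjusted p = 0.0457) was lost without each clone in turn. Mcm5 RNA showed the same order, with 174, 194 and 187 CPM in WT, 209.8, 215 and 271 in P131S and 225, 239 and 209 in H137Y. Mcm3 footprints were 584, 534 and 549.8 CPM in WT and 657, 719 and 978 in P131S, where clone 20 was far above the others and the change of 0.50 ± 0.14 (adjusted p = 0.0176) was lost without it and without WT clone 2 or 1.

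The genes that load the helicase moved in both directions. Among 9 loading genes, 2 rose (Orc2, Cdt1) and 1 fell (Orc5) in RNA of Rps15 P131S (all genes 23.7% higher, 23.4% lower). In RNA of Rps15 H137Y 3 fell (Orc3, Orc4, Orc5) and none rose (all genes 20% lower, 21% higher). In footprints only Cdc6 and Gmnn rose in P131S (8.42% of all genes) and Gmnn in H137Y (5.22%). Without clone 20, Orc2 rose and Orc4 and Orc5 fell in RNA of P131S (38.4% of all genes changed). Gmnn alone passed in footprints in that case (9.37% of all genes).

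Orc5 (chr5:22486480-22550338), an ATPase subunit of ORC, had the largest RNA change of the 45 genes. Its RNA was 42.6, 40.3 and 40.6 CPM in WT, 29.9, 26.8 and 28.8 in P131S and 23.7, 25.6 and 25.3 in H137Y (plot of RNA by clone for 6 genes). The Rps15 groups lay far below WT, by 0.53 ± 0.07 (adjusted p = 3.73e-06) and 0.73 ± 0.07 (adjusted p = 8.38e-08), which no left-out clone undid. Orc5 also fell in Rpl10 R98S, to 29.4, 32.1 and 30.2 CPM (log2 change -0.43 ± 0.07, adjusted p = 0.000431), and in Rpl11+/-, to 32.6, 34.9 and 36 CPM (-0.26 ± 0.07, adjusted p = 0.0183; lost without WT clone 3 or without clone 406). In Rpl5+/- the change was -0.26 (adjusted p = 0.0666), in Rpl22+/- -0.14 (adjusted p = 0.342) and in Rpl22-/- -0.16 (adjusted p = 0.201). All 21 mutant clones were below the lowest WT clone, the highest of them at 39.6 CPM, but these comparisons share the 3 WT clones. Orc5 footprints were 51.7, 57.3 and 59.2 CPM in WT, 48.1, 49.5 and 44.2 in P131S and 38.6, 46.9 and 53.7 in H137Y. Neither footprint difference passed (-0.25, adjusted p = 0.266, and -0.27, adjusted p = 0.241).

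Orc2, another ORC subunit, changed in the opposite direction. Its RNA was 68.4, 63.1 and 67 CPM in WT, 76.1, 83.4 and 121 in P131S and 68.3, 72.4 and 70 in H137Y. The rise in P131S (0.50 ± 0.12, adjusted p = 0.00196) fell to 0.26 without clone 20 and still passed, while H137Y overlapped WT (0.09, adjusted p = 0.601). Over all mutant genotypes, 18 of 21 clones had more Orc2 RNA than the highest WT clone. Orc4 RNA was 45.7, 45.9 and 45.1 CPM in WT, 36.8, 37.4 and 44.5 in P131S and 32.8, 29.4 and 36.2 in H137Y. It fell in H137Y by 0.48 ± 0.09 (adjusted p = 0.000234), and all 3 P131S clones were below WT without passing (-0.20, adjusted p = 0.0634), although without clone 20 the fall passed (-0.30, adjusted p = 0.0109). Orc4 and Orc3 RNA had negative changes in all 7 mutant genotypes. Of the 21 mutant clones, 18 (Orc4) and 15 (Orc3) were below the lowest WT clone, and the comparisons share the WT clones. Orc1, which binds the origin first, did not pass in either (WT 12.7, 14.4 and 12.5 CPM; P131S 12.7, 13.6 and 15.6; H137Y 12.8, 12.3 and 14.5).

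**Figure D2:**
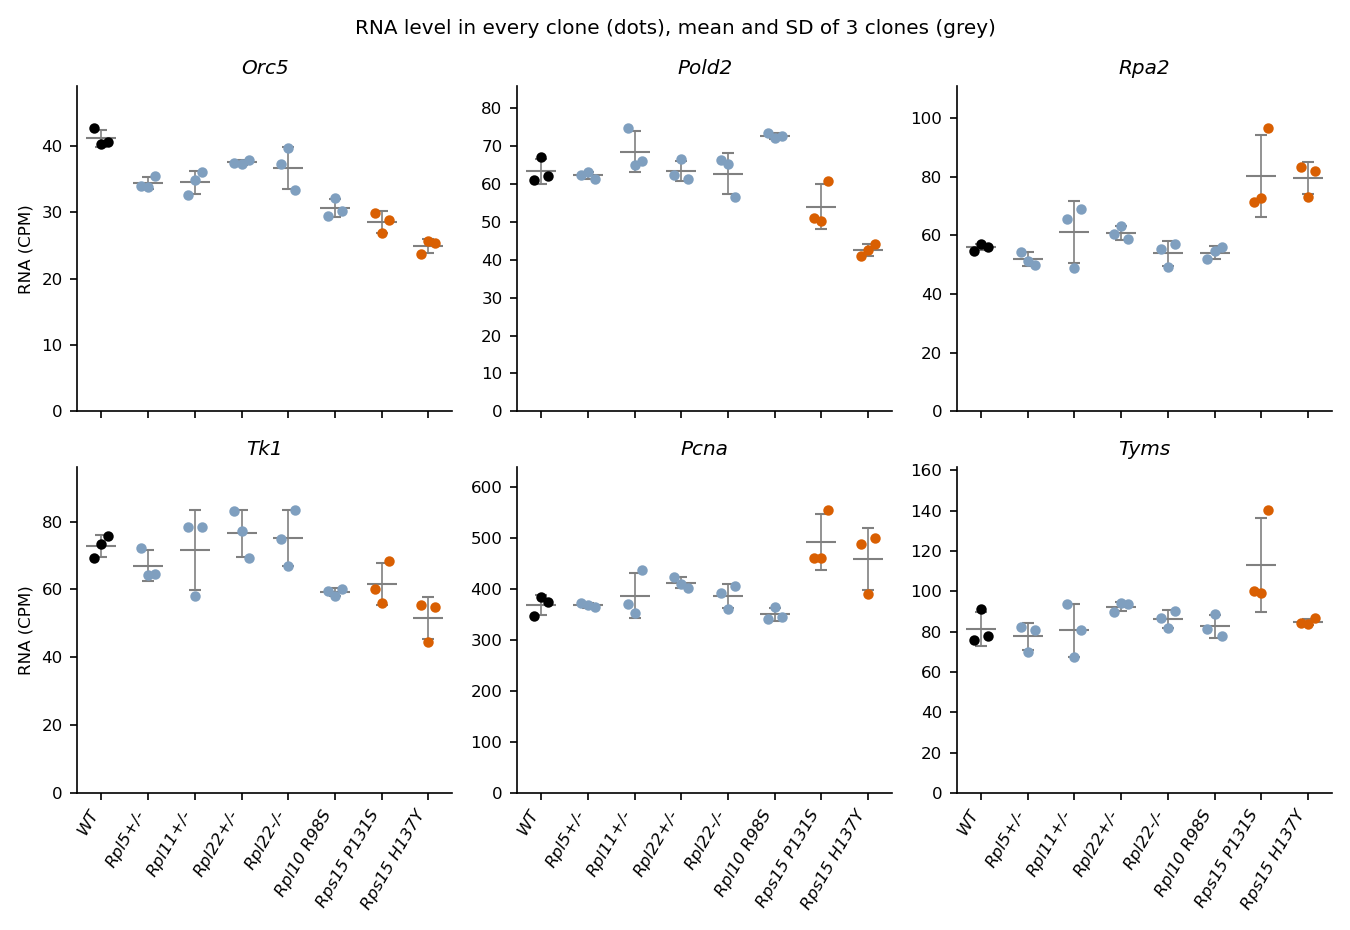
RNA level in CPM (vertical axis, from 0) of 6 genes in the 3 clones of each genotype (dots; black WT, blue ribosomal protein genes other than Rps15, orange Rps15), with mean and SD in grey. Orc5 is lower than WT in every mutant clone, Pold2 and Tk1 are lowest in H137Y, and Rpa2, Pcna and Tyms are highest in clone 20 of P131S.

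Gmnn, the inhibitor of Cdt1 (chr13:24751845-24761937), had more footprints in both Rps15 genotypes without more RNA. Its footprints were 111, 138 and 148 CPM in WT, 175, 214 and 222 in P131S and 223, 202 and 243 in H137Y. No Rps15 clone overlapped WT, and the rises of 0.62 ± 0.14 (adjusted p = 0.00415) and 0.75 ± 0.14 (adjusted p = 0.00155) held without any single clone. Gmnn RNA was 66.7, 69.4 and 69.8 CPM in WT, 75.1, 66.3 and 83.9 in P131S and 60.1, 54 and 62 in H137Y. RNA did not pass in either (0.13, adjusted p = 0.297, and -0.22, adjusted p = 0.0769), and in H137Y its sign was opposite to that of the footprints.

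Cdc6, an ATPase that recruits the helicase, gave 69.1, 67.9 and 74.7 CPM of footprints in WT, 86, 95.5 and 134 in P131S and 114, 85.5 and 108 in H137Y. Both Rps15 groups were above WT, with 0.58 ± 0.18 (adjusted p = 0.0343) in P131S, lost without clone 20 or any 1 WT clone, and 0.54 ± 0.18 (adjusted p = 0.0611) in H137Y. Cdc6 RNA was 21.5, 22.3 and 22.2 CPM in WT, and its clones ran from 20.2 to 31 in P131S and from 24.4 to 28.2 in H137Y without passing. Cdt1, the partner of Cdc6 in loading, was 53.9, 60.2 and 59.4 CPM in RNA of WT, 58.6, 70.2 and 79.6 in P131S and 61.1, 51.2 and 60.8 in H137Y. The P131S clones overlapped WT, and the call (0.26 ± 0.09, adjusted p = 0.0243) was lost without clone 63, clone 20 or WT clone 3.

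Of the 6 helicase activation genes, Gins3, a GINS subunit, was the one that passed in RNA, and none passed in footprints of any genotype. Without P131S clone 20, Mcm10, a factor for helicase activation, passed in RNA as well (-0.26, adjusted p = 0.0393). Gins3 RNA was 14.4, 18.8 and 16.2 CPM in WT, 12.7, 11.4 and 12.2 in P131S and 13.5, 10.6 and 14.4 in H137Y. It fell in P131S (-0.44 ± 0.14, adjusted p = 0.0133), in H137Y (-0.36 ± 0.14, adjusted p = 0.045) and in Rpl11+/-, to 11.8, 9.31 and 13.4 CPM (-0.52 ± 0.14, adjusted p = 0.0211). Removing 1 clone undid the H137Y call in 4 of 6 cases and the Rpl11+/- call in 3, and the P131S call was lost without WT clone 2. All 7 mutant genotypes had negative changes in Gins3 RNA. Of their 21 clones, 16 were below the lowest WT clone, and the comparisons share the WT clones. Gins3 footprints gave -0.25 (adjusted p = 0.634) and 0.24 (adjusted p = 0.677) in P131S and H137Y. Cdc45, which travels with the helicase, was 40.7, 44.4 and 43.2 CPM in RNA of WT, 40.3, 39.1 and 45.4 in P131S and 42.8, 31.9 and 39.8 in H137Y, and did not pass.

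The clamp Pcna (chr2:132249286-132253180) rose in both Rps15 genotypes and both assays. RNA was 347, 384 and 374 CPM in WT, 461, 461 and 555 in P131S and 488, 389 and 500.4 in H137Y. The changes were 0.42 ± 0.09 (adjusted p = 0.000835) and 0.32 ± 0.09 (adjusted p = 0.00831), and H137Y clone 6 lay just above WT. The H137Y call in RNA was lost without clone 2. Footprints were 614, 812 and 713 CPM in WT, 951, 1041 and 1209 in P131S and 990.2, 839.8 and 1053 in H137Y. They rose by 0.58 ± 0.13 (adjusted p = 0.00508) and 0.43 ± 0.13 (adjusted p = 0.0416), and the second call was lost in 4 of 6 fits without 1 clone. The table also holds 2 Pcna pseudogene rows whose RNA counts reached 12.4% of those of Pcna, so reads may be divided between near-identical copies.

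The clamp loader subunits did not move together. Rfc2 RNA was 85.4, 94.8 and 94.6 CPM in WT, 119.8, 127 and 132 in P131S and 96.6, 100 and 96.9 in H137Y, a rise in P131S of 0.46 ± 0.07 (adjusted p = 1.75e-05) that no left-out clone undid. Rfc4 and Rfc5 fell in RNA of H137Y, by 0.34 ± 0.08 (adjusted p = 0.0013) and 0.33 ± 0.09 (adjusted p = 0.00369), and were at -0.04 and 0.08 in P131S. Rfc3 footprints were 31.7, 30.6 and 30.8 CPM in WT, 40.9, 42.3 and 66 in P131S and 40.1, 44 and 43.7 in H137Y. All 6 Rps15 clones were above WT (0.68 ± 0.14, adjusted p = 0.00254, and 0.46 ± 0.14, adjusted p = 0.0417), and the H137Y call was lost without each clone in turn. The Rpl10 R98S clones, at 41.6 to 46.2 CPM, and the Rpl22+/- clones, at 38.1 to 41.8, were above WT too, without passing in edgeR's test. Of the 21 mutant clones, 18 lay above the highest WT clone, and these comparisons share the WT clones. Rfc3 RNA rose in P131S (0.39, adjusted p = 0.00835), where clone 20 at 41.2 CPM stood above 28.3 and 29.6, and fell to 0.19 without passing when it was left out.

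RPA showed unequal changes of its subunits. Rpa2 RNA was 54.8, 57 and 56.1 CPM in WT, 71.5, 72.8 and 96.4 in P131S and 83.1, 73.1 and 82 in H137Y. Both groups were above WT by nearly equal amounts (0.52 ± 0.11, adjusted p = 0.000541, and 0.51 ± 0.11, adjusted p = 0.000859). The smallest subunit, Rpa3, was 69.3, 71.1 and 73 CPM in WT, 73.5, 71.2 and 82.2 in P131S and 55.7, 46 and 58.5 in H137Y, a fall in H137Y of 0.41 ± 0.08 (adjusted p = 0.00043). The largest, Rpa1, was 146, 158 and 155 CPM in WT, 157, 157 and 177 in P131S and 164, 167 and 159.8 in H137Y, with 0.10 in both and no call. None of the 3 passed in footprints.

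**Figure D3:**
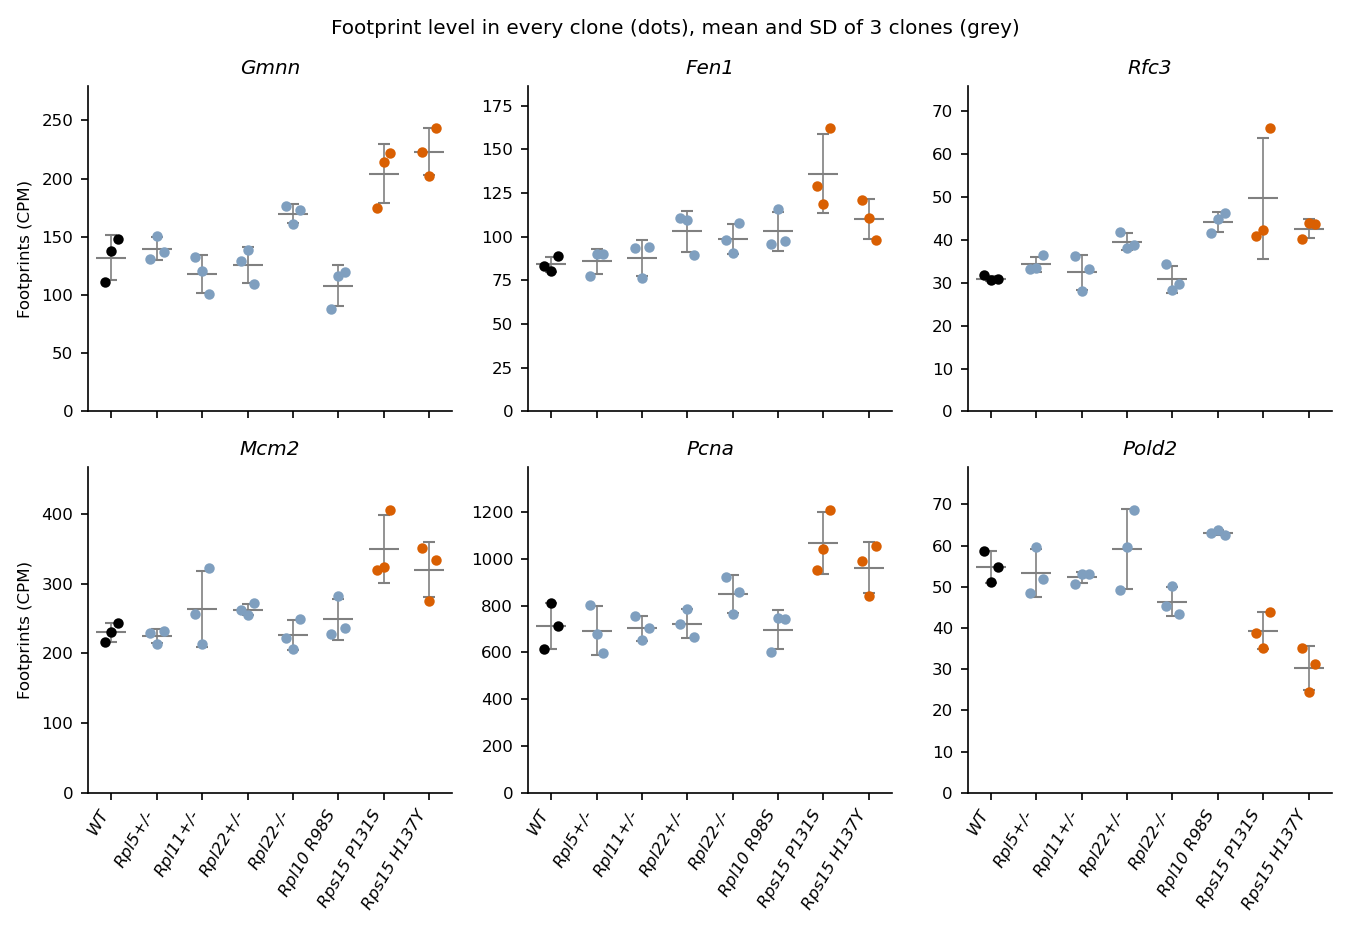
Footprint level in CPM (vertical axis, from 0) of 6 genes in the 3 clones of each genotype (dots; black WT, blue ribosomal protein genes other than Rps15, orange Rps15), with mean and SD in grey. The Rps15 clones lie above WT for Gmnn, Fen1, Rfc3, Mcm2 and Pcna and below WT for Pold2. Most other mutant clones also lie above WT for Fen1 and Rfc3.

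Among the 8 polymerase and primase genes, Pold2 (chr11:5872180-5878256), the accessory subunit of polymerase delta, fell and Pola2, the accessory subunit of polymerase alpha, rose. Pold2 RNA was 60.9, 67 and 62 CPM in WT, 51, 50.2 and 60.7 in P131S and 41, 42.6 and 44.1 in H137Y. It fell by 0.57 ± 0.08 in H137Y (adjusted p = 6.25e-06) and by 0.23 ± 0.08 in P131S (adjusted p = 0.0162), where clone 20 reached almost the lowest WT clone and the call was lost in 3 of 6 fits without 1 clone. Pold2 footprints were 58.8, 51.1 and 54.8 CPM in WT, 38.7, 35.1 and 44 in P131S and 35.2, 24.5 and 31.2 in H137Y. The fall of 0.86 ± 0.13 in H137Y (adjusted p = 0.000361) was the largest footprint change of the 45 genes and passed without any single clone, and that of 0.48 ± 0.13 in P131S (adjusted p = 0.0154) was lost in 4 of 6 such fits. The catalytic subunit Pold1 did not pass in either assay, with RNA of 54.7, 63 and 59.3 CPM in WT, 64, 57.5 and 71.6 in P131S and 57.8, 60.7 and 55.5 in H137Y.

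Pola2 RNA was 82.4, 93.2 and 94.9 CPM in WT, 112, 117 and 133 in P131S and 112, 96 and 105 in H137Y. It rose in P131S by 0.42 ± 0.10 (adjusted p = 0.00209), and the H137Y clones were also above WT without passing (0.21, adjusted p = 0.101). Pola2 footprints were 144, 143 and 154 CPM in WT, 205, 200.3 and 254 in P131S and 207, 175 and 206 in H137Y. The P131S rise of 0.58 ± 0.14 (adjusted p = 0.00558) held without any single clone, and H137Y reached 0.41 (adjusted p = 0.0535). Pola1, the catalytic subunit, stayed within 75.3 to 92.5 CPM of RNA in WT and both Rps15 groups, with no call. Prim1, the catalytic primase subunit, had footprints of 66.8, 60.7 and 72.1 CPM in WT, 85.8, 88.3 and 111 in P131S and 54, 59.1 and 72.3 in H137Y. It rose in P131S alone among the comparisons with WT (0.51 ± 0.14, adjusted p = 0.0135; H137Y -0.11, adjusted p = 0.704), and this call was lost without clone 20 or WT clone 2. Pole, the catalytic subunit of polymerase epsilon, rose in RNA of H137Y (0.36 ± 0.13, adjusted p = 0.0271), with clones that overlapped WT.

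Of the Okazaki fragment genes, the flap nuclease Fen1 (chr19:10199132-10204393) changed and the ligase Lig1 did not pass. Fen1 footprints were 83.4, 80.6 and 88.8 CPM in WT, 129, 119 and 162 in P131S and 121, 111 and 98.2 in H137Y. Both groups were above WT, and the P131S rise of 0.69 ± 0.13 (adjusted p = 0.000932) was the largest rise in that genotype, against 0.39 ± 0.13 (adjusted p = 0.0545) in H137Y. Of all 21 mutant clones, 19 had more Fen1 footprints than the highest WT clone. No genotype had a negative change, and all these comparisons share the WT clones. Fen1 RNA was 89.2, 95.1 and 97 CPM in WT, 104, 107 and 115 in P131S and 109, 123 and 101 in H137Y. It rose in H137Y (0.24, adjusted p = 0.0334), a call lost in 4 of 6 fits without 1 clone, and reached 0.21 in P131S (adjusted p = 0.0562). Lig1 RNA ran from 97.3 to 109 CPM in WT, from 100.4 to 108 in P131S and from 99.7 to 114 in H137Y.

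Among the 5 nucleotide synthesis genes, different members passed in the 2 Rps15 genotypes. In Rps15 P131S, Tyms and Dut rose in RNA, and in Rps15 H137Y, Rrm2 and Tk1 fell. Tyms RNA was 75.7, 91.2 and 77.7 CPM in WT, 100.3, 99.3 and 140.4 in P131S and 84.3, 83.8 and 86.7 in H137Y. The rise in P131S was 0.48 ± 0.12 (adjusted p = 0.00238) and shrank to 0.28, still passing, without clone 20. Dut, which removes dUTP, was 191, 199.6 and 191 CPM in RNA of WT, 223, 218 and 262 in P131S and 181, 133 and 195 in H137Y. Its footprints were 162, 172 and 159 CPM in WT, 189.6, 202 and 233 in P131S and 160.2, 125 and 145 in H137Y. Dut was above WT in all P131S clones in both assays (0.27 ± 0.10, adjusted p = 0.031, and 0.34 ± 0.10, adjusted p = 0.0292), and both calls were lost without clone 20, WT clone 3 or WT clone 1.

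Rrm2, the regulatory subunit of ribonucleotide reductase, was 221, 233 and 202 CPM in RNA of WT, 192, 203 and 222 in P131S and 160.4, 154 and 172 in H137Y. It fell in H137Y by 0.43 ± 0.10 (adjusted p = 0.00177), with no overlap with WT. Tk1, the salvage kinase for thymidine, was 69.4, 73.3 and 75.8 CPM in WT, 60.1, 56.1 and 68.3 in P131S and 55.3, 44.4 and 54.9 in H137Y. Its fall in H137Y was 0.50 ± 0.11 (adjusted p = 0.00113), while P131S lay below WT without passing (-0.24, adjusted p = 0.0756) and passed without clone 20 (-0.33, adjusted p = 0.0339). Footprints of neither passed: Rrm2 gave 649, 577 and 588 CPM in WT and 426, 445 and 539 in H137Y (-0.36 ± 0.18, adjusted p = 0.227). The large subunit Rrm1 kept to 298 to 314 CPM of RNA in WT, 283 to 322 in P131S and 261 to 323 in H137Y.

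The calls in RNA and footprints overlapped in part (scatter plot of footprint change against RNA change). In Rps15 P131S, 9 genes changed in both assays, each in the same direction: Mcm2, Mcm3, Mcm5, Mcm6, Pcna, Rfc3, Pola2, Pold2 and Dut, which is 52.9% of the genes changed in RNA and 69.2% of those changed in footprints. Over all genes tested in both assays these shares were 31.9% and 71.6%. Without clone 20, Pcna, Pola2 and Pold2 did so, 23.1% of the RNA set and 37.5% of the footprint set (all genes 22.4% and 71.2%). In Rps15 H137Y, 4 did so (Mcm5, Pcna, Rfc5, Pold2), 25% of the RNA set and 57.1% of the footprint set (all genes 24.4% and 68%). Of these 4, only Pold2 kept its H137Y call in both assays without any single clone, and the Rfc5 call in footprints (log2 change -0.31) was lost in 5 of 6 such fits and in 4 of 5 other alternatives. In RNA, 18 of the 45 genes passed in no mutant genotype, among them Orc1, Cdc45, Rpa1, Pola1, Pold1, Lig1 and Rrm1.

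**Figure D4:**
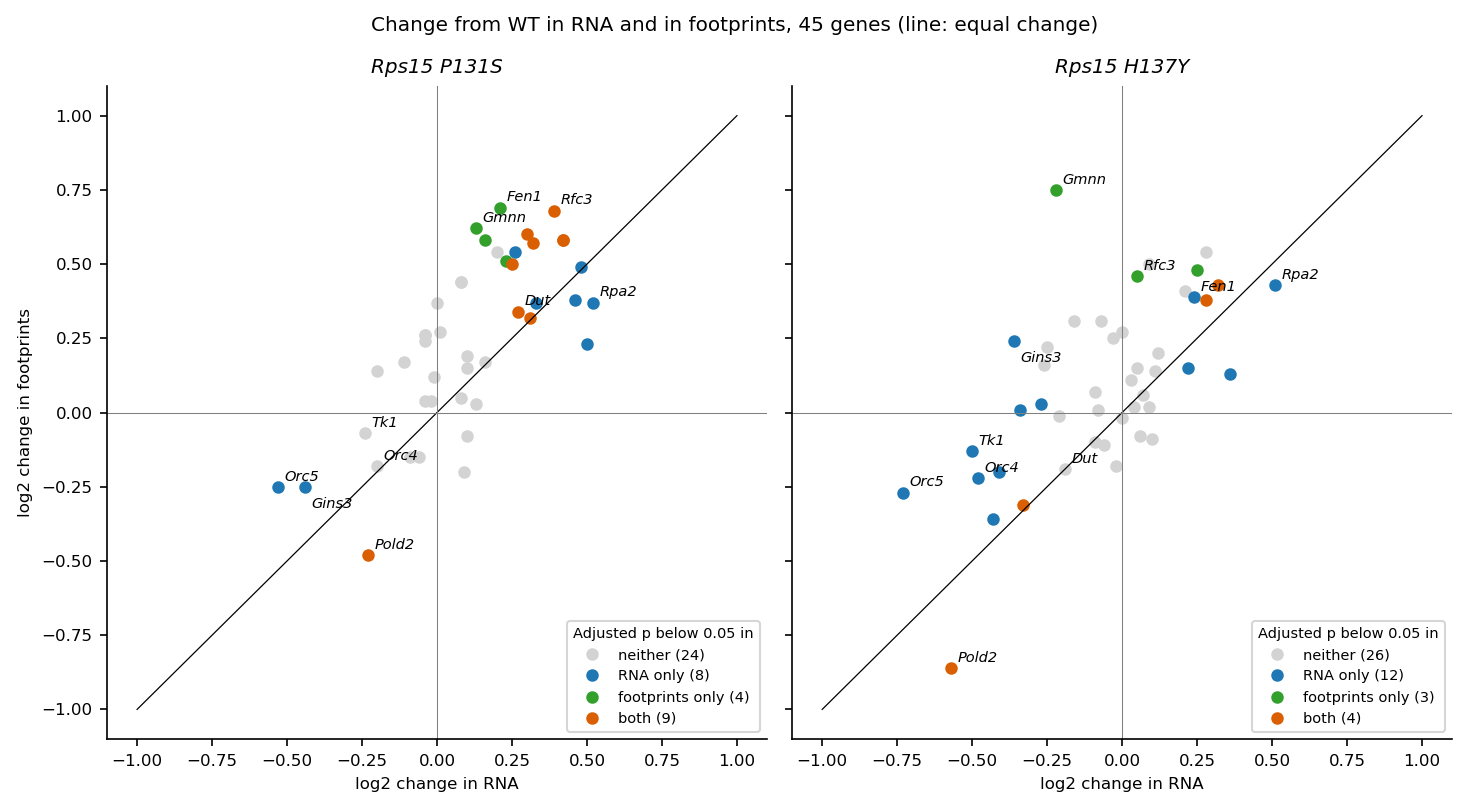
Log2 change from WT in footprints (vertical axis) against that in RNA (horizontal axis) of the 45 genes, in Rps15 P131S (left) and Rps15 H137Y (right), coloured by the assay in which the adjusted p is below 0.05; the line marks equal change. Most P131S points lie above the line, Gmnn is high in footprints in both panels, and Pold2 is low in both assays.

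Translational efficiency, the change in footprints relative to the change in RNA, was tested as an interaction over both kinds of library. It passed for Fen1 in Rps15 P131S (0.50 ± 0.16, adjusted p = 0.0475; 5.39% of all genes passed, 2.26% higher) and for Gmnn in Rps15 H137Y (1.01 ± 0.17, adjusted p = 0.000502; 4.28% of all genes, 1.58% higher). The median over the 45 genes was 0.18 in P131S and 0.14 in H137Y, against 0.03 for all genes in both. The log2 ratio of footprint to RNA CPM of Gmnn was 0.73, 0.98 and 1.08 in WT clones 3, 2 and 1, 1.21 to 1.69 in P131S and 1.88, 1.90 and 1.96 in H137Y. Every Rps15 clone was above WT, and the H137Y clones lay close together above all P131S clones. The ratio of Fen1 was -0.10, -0.24 and -0.13 in WT, 0.30, 0.15 and 0.49 in P131S and 0.16, -0.15 and -0.04 in H137Y, so that P131S was above WT and H137Y overlapped it. The Fen1 call was lost in 5 of 6 fits that left out 1 clone, the Gmnn call in none.

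With the clone as a replicate block, which pairs the RNA and footprint library of each lysate, 4 genes passed in Rps15 P131S and 3 in Rps15 H137Y, with 9.33% and 7.27% of all genes. In P131S these were Gmnn (0.52 ± 0.12, adjusted p = 0.0062), Fen1 (0.49 ± 0.11, adjusted p = 0.00514), Cdc6 (0.44 ± 0.10, adjusted p = 0.00913) and Mcm2 (0.32 ± 0.09, adjusted p = 0.0366). In H137Y they were Gmnn (1.02 ± 0.12, adjusted p = 1.89e-05), Cdc45 (0.52 ± 0.14, adjusted p = 0.0217) and Rfc3 (0.44 ± 0.13, adjusted p = 0.0393). The ratio of Cdc6 was 1.66, 1.58 and 1.73 in WT and 2.06, 2.07 and 2.09 in P131S, a narrow range for clones whose footprint levels ran from 86 to 134 CPM. Between the 2 genotypes no gene passed without the block (1.18% of all genes passed), although 6 of the 45 had an unadjusted p below 0.05. With it, 2 genes passed, Gmnn (-0.50 ± 0.12, adjusted p = 0.0271) and Orc2 (-0.68 ± 0.15, adjusted p = 0.0238), both lower in P131S than in H137Y, with 2.13% of all genes.

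The 2 Rps15 genotypes were also compared directly, within the fit over all genotypes. In RNA, 17 genes were higher in P131S than in H137Y and none was lower, against 12.6% of all genes higher (25.2% in either direction), and the median difference was 0.15 (all genes -0.02). Without clone 20, 6 were higher and none lower (13.3% of the 45), and the median was 0.06 (plot of differences between the Rps15 genotypes). In that fit 1091 of 13081 genes were higher and 1192 lower (17.5% in either direction). Leaving out H137Y clone 16 gave 11 (all genes 18.4% in either direction). The 6 genes that passed without clone 20 were Rfc2, Rfc4, Rfc5, Rpa3, Pold2 and Dut, and these passed without any other single clone too. With only the 6 Rps15 clones fitted, an alternative chosen after seeing the data, none of the 45 passed in edgeR's test in RNA (smallest adjusted p 0.0523, 12 of the 45 at an unadjusted p below 0.05; 3.13% of all genes passed) or in footprints (0.156, 5 of the 45; 0.243%), and the median differences were 0.14 and 0.15.

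The largest of these differences was Rpa3, at 0.50 ± 0.08 (adjusted p = 0.000179), with P131S clones at 71.2 to 82.2 CPM and H137Y clones at 46 to 58.5. Rfc5, a clamp loader subunit, was 88.4, 88.4 and 114 CPM in P131S and 70.5, 76.8 and 72.1 in H137Y (0.41 ± 0.09, adjusted p = 0.00152). Rfc2 differed by 0.37 ± 0.07 (adjusted p = 0.000572), Rfc4 by 0.30 ± 0.08 (adjusted p = 0.00668), Pold2 by 0.34 ± 0.08 (adjusted p = 0.00225) and Dut by 0.47 ± 0.10 (adjusted p = 0.00209). The MCM subunits, Pcna and Rpa2 did not pass, with differences of 0.05 to 0.22 for MCM, 0.10 for Pcna and 0.01 for Rpa2. In footprints 3 genes were higher in P131S, Dut (0.53 ± 0.10, adjusted p = 0.00578), Prim1 (0.62 ± 0.14, adjusted p = 0.0135) and Rfc5 (0.37 ± 0.10, adjusted p = 0.0416), against 2.23% of all genes higher (4.17% in either direction). Of these, Dut passed without P131S clone 20 and without H137Y clone 16, and each of those fits passed 1 of the 45 genes. Rps15 RNA was above WT in P131S clones 63 and 20 and H137Y clone 16 and below WT in the other 3 Rps15 clones, and the part of this in the differences was not tested.

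**Figure D5:**
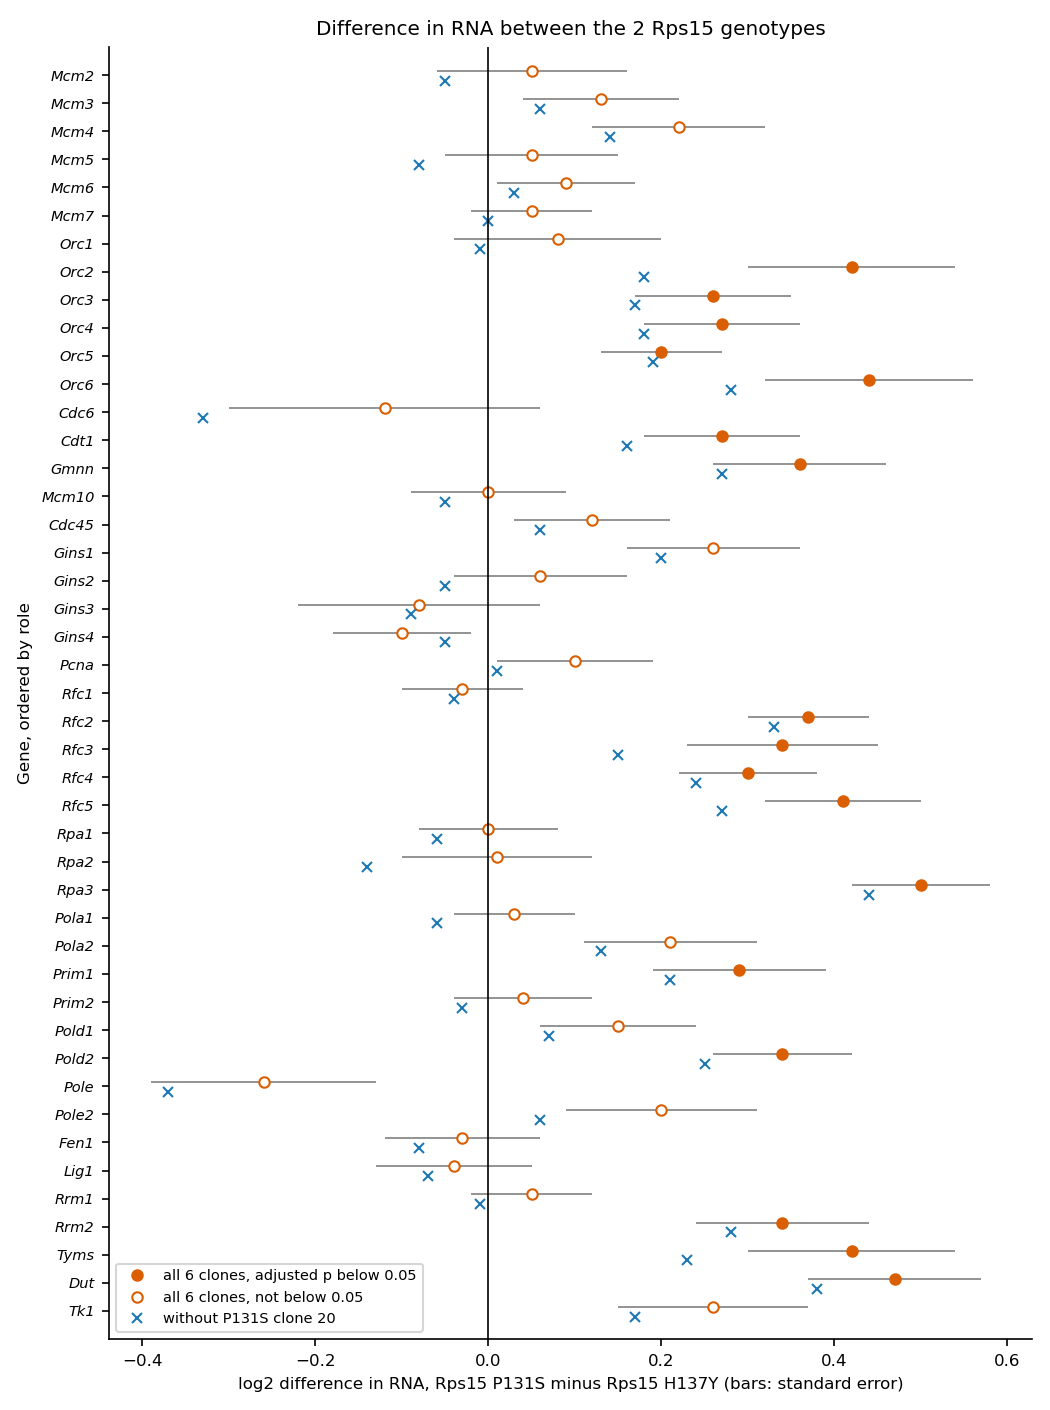
Log2 difference in RNA between Rps15 P131S and Rps15 H137Y (horizontal axis) of the 45 genes (rows, by role), with all 6 clones (circles, filled where the adjusted p is below 0.05, bars show the SE) and without P131S clone 20 (crosses). The 17 filled circles all lie to the right of 0, and most crosses lie closer to 0.

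Few of the genes changed in the other 5 genotypes. In RNA, 1 gene fell in Rpl5+/- (1.04% of all genes changed, 0.414% lower), 1 rose and 3 fell in Rpl11+/- (11.8%, with 5.73% higher and 6.05% lower), and 1 fell in Rpl10 R98S (12.9%, with 6.03% lower). In edgeR's test none passed in Rpl22+/- (3.9% of all genes; 4 of the 45 at an unadjusted p below 0.05) or Rpl22-/- (5.27%; 5 of the 45), and DESeq2 gave 0 in both too. Leaving out the library labelled Rpl22-/- clone 30 also gave 0, with 2 of the 45 below 0.05 unadjusted. In footprints edgeR passed none of the 45 in Rpl5+/- (0.0123% of all genes), Rpl11+/- (0.074%), Rpl22+/- (0.253%), Rpl22-/- (0.105%) or Rpl10 R98S (1.62%), where 1, 2, 11, 5 and 10 of the 45 had an unadjusted p below 0.05. DESeq2 passed 2 in Rpl22+/- (2.49% of all genes) and 1 in Rpl10 R98S (4.52%). In translational efficiency none passed in these genotypes, where all genes gave 0%, 0%, 0.00828%, 0.0414% and 0.364% in the same order, and 0, 0, 3, 1 and 2 of the 45 were below 0.05 unadjusted. The median changes of the 45 ran from -0.08 (Rpl5+/-, 39 negative) to 0.07 (Rpl22+/-, 32 positive) in RNA. In footprints they ran from -0.05 (Rpl5+/-) to 0.11 (Rpl22+/-, 34 positive).

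Mcm7, a helicase subunit, was the single gene that fell in Rpl5+/-, to 193, 188 and 172 CPM (-0.31 ± 0.07, adjusted p = 0.0433), a call lost without each clone in turn. It also fell in Rpl11+/-, to 195, 189.7 and 175 CPM (-0.29 ± 0.07, adjusted p = 0.0126; lost without WT clone 2 or clone 22), and was at 213 CPM or more in all Rpl10 R98S and Rpl22+/- clones. Orc2 rose in Rpl11+/- (0.38 ± 0.12, adjusted p = 0.0473), a call lost in 5 of 6 fits without 1 clone, and was at 0.33 in Rpl5+/- (adjusted p = 0.194). Rpl11+/- clone 414 was below the WT mean for all but 3 of the 45 genes in RNA and all but 2 in footprints, unlike clones 406 and 22. Mcm2 RNA, for example, was 174, 129.7 and 197 CPM in clones 406, 414 and 22. Cdc6 RNA was 16.8 and 17.2 CPM in Rpl22-/- clones 649 and 776 and 12 CPM in the library labelled Rpl22-/- clone 30 (WT 21.5 to 22.3). The change of -0.53 ± 0.18 did not pass (adjusted p = 0.103) and was -0.37 ± 0.19 (adjusted p = 0.389) without that library.

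Other lists of the pathway gave the following counts in RNA. Of 30 further replication factors, 9 rose and 4 fell in Rps15 P131S (43.3%, all genes 47%) and 2 rose and 5 fell in Rps15 H137Y (23.3%, all genes 41%). Without P131S clone 20, 2 rose and 3 fell (16.7%, all genes 38.4%). Those named by size were Dna2, a nuclease-helicase (0.59, adjusted p = 0.00182), and Dscc1, a subunit of an alternative clamp loader (0.44, adjusted p = 0.0146), which rose, and Pold4, the smallest polymerase delta subunit (-0.44, adjusted p = 0.0481), and Mtbp, an origin firing factor (-0.39, adjusted p = 0.00626), which fell. Of 36 further nucleotide synthesis genes, 16 rose and 6 fell in P131S (61.1%, all genes 47%) and 16 rose and 2 fell in footprints (50%, all genes 16.7%). Without clone 20, 11 rose and 5 fell in RNA (44.4%, all genes 38.4%) and 8 rose in footprints (22.2%, all genes 9.37%). Among these, the purine salvage enzyme Aprt went from 94.5, 101 and 100.1 CPM in WT to 154, 157 and 183 (0.74, adjusted p = 7.96e-07) and the uridine kinase Uck2 from 232, 247 and 234 to 357, 399 and 432 (0.74, adjusted p = 1.04e-05). Mthfd2, a mitochondrial folate enzyme, fell (-0.65, adjusted p = 0.0321), as did the mitochondrial kinase Tk2 (-0.52, adjusted p = 0.00622).

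Of 13 genes of the E2F and RB family, 3 rose and 5 fell in Rps15 P131S (61.5%, all genes 47%), and as many did without clone 20 (all genes 38.4%). Tfdp1, the dimer partner of E2F (0.68, adjusted p = 9.16e-06), and E2f4 (0.35, adjusted p = 0.000968) rose, and the repressor E2f7 (-0.57, adjusted p = 6.94e-05) and Rbl2 (-0.56, adjusted p = 0.000296) fell. Of 13 tested G1 and S cyclins, kinases and inhibitors, 3 rose and 5 fell in Rps15 H137Y (61.5%, all genes 41%). The inhibitor Cdkn1b went from 179, 172 and 155 CPM in WT to 84.6, 68.3 and 90.9 (-1.05, adjusted p = 4.37e-05), Cdkn2c fell too (-0.66, adjusted p = 0.00123), and Ccnd3 (0.65, adjusted p = 2.86e-06) and Ccne1 (0.52, adjusted p = 0.00762) rose. Of 22 mitosis genes, 14 fell and 1 rose in H137Y (68.2%, all genes 41%), among them the kinesin Kif11 (-0.60, adjusted p = 2.3e-06) and the kinase Ttk (-0.55, adjusted p = 2.67e-06), with Cenpf the one that rose (0.23, adjusted p = 0.0464). In P131S 8 of the 22 fell and none rose (36.4%, all genes 47%), and 11 fell without clone 20 (50%, all genes 38.4%). In Rpl10 R98S 11 fell and none rose (50%, all genes 12.9%). Footprints of the mitosis genes gave fewer calls. In H137Y 3 of the 22 fell and 2 rose (22.7%, all genes 11.7%), with a median log2 change of -0.14 (RNA -0.26). In P131S footprints 2 fell (9.09%, all genes 16.7%), and in Rpl10 R98S footprints 1 fell (4.55%, all genes 1.62%).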

How the data were processed

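RNA-seq (poly(A)-selected, directional) and ribosome footprints (RNase I, 28 to 30 nt) were made from each divided lysate, per the labels' protocols. The deposited values are estimated counts per gene, not whole numbers. The submitters' processing notes name STAR 2.6.1d, Salmon 1.4.0, DESeq2 1.30 and GRCm38 with no role given; how strand and coding regions were counted is not given in the sources used here. Counts were rounded, filtered with filterByExpr, scaled by TMM and tested with edgeR 4.0.16 (quasi-likelihood, robust; R 4.3.3) over all genotypes of an assay, leaving 12814 genes in RNA and 16217 in footprints. Translational efficiency was the footprint-by-RNA interaction over all 48 libraries (12074 genes). P-values were adjusted by Benjamini-Hochberg over all genes within each comparison, at a threshold of 0.05, and SE is the log2 change divided by the root of the F statistic. CPM values use TMM-scaled library sizes. Alternatives were median-of-ratios scaling, no count filter, limma 3.58.1 voom, DESeq2 1.42.0, fits of only the genotypes compared, and leaving out each clone. A fit of only the 2 Rps15 genotypes, and counts by role, list and promoter letters without Rps15 P131S clone 20, were added after seeing the data. RNA and footprint libraries pair by clone through the divided lysate: their deviations from the group means correlated at 0.0897 to 0.46 within a clone (23 of 24 above 0.1) and at -0.346 to -0.0317 between clones. Translational efficiency was therefore also fitted with clone as a blocking term. The tests were tried on simulated data. The members and lists were chosen with earlier results of these data known. Clone values are given for at most the 12 genes per assay with the largest changes past the threshold whose clones do not overlap WT, plus fixed representatives of the roles; other genes are named with change and adjusted p, and list genes are the 2 largest rises and falls in the genotype with most calls. Promoters and positions are from RefSeq (GRCm38.p6). Intervals between clones rest on n = 3.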

Additional observations from a re-analysis of the deposited data

Results flagged for a closer look

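The direct comparison of the 2 Rps15 genotypes gave 20 differences past the threshold in edgeR's quasi-likelihood test, all higher in P131S. In RNA the log2 differences were 0.42 for Orc2, 0.26 for Orc3, 0.27 for Orc4, 0.20 for Orc5, 0.44 for Orc6, 0.27 for Cdt1 and 0.36 for Gmnn among the loading genes. The clamp loader subunits differed by 0.37 (Rfc2), 0.34 (Rfc3), 0.30 (Rfc4) and 0.41 (Rfc5), and the RPA subunit Rpa3 by 0.50. The primase Prim1 differed by 0.29 and the polymerase subunit Pold2 by 0.34. The nucleotide synthesis genes differed by 0.34 (Rrm2), 0.42 (Tyms) and 0.47 (Dut). In footprints the differences were 0.37 for Rfc5, 0.62 for Prim1 and 0.53 for Dut. Without P131S clone 20, 6 of the 17 RNA differences and 1 of the 3 footprint differences passed. With only the 2 Rps15 genotypes fitted, none of the 20 passed.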

How the results depend on the processing

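No change that passed the threshold reversed its sign in an alternative. Between the Rps15 genotypes, some RNA differences that had not passed reversed their sign without P131S clone 20. Among them were Rpa2 (from 0.01 to -0.14), Mcm5 (from 0.05 to -0.08) and Mcm2 (from 0.05 to -0.05). These did not pass without the clone either (edgeR adjusted p = 0.373, 0.616 and 0.821). With only the 2 Rps15 genotypes fitted, an alternative chosen after seeing the data, 0 genes passed between them in RNA and 0 in footprints. In RNA, the count of changed genes in Rpl5+/- (1) was 0 without the count filter (all genes 0.218%) and 2 with DESeq2 (3.02%). Fitting only its clones and WT gave 7 (15.8%). The same kind of fit gave 3 in Rpl22+/- (all genes 10.5%), 2 in Rpl22-/- (12%) and 9 in Rpl10 R98S (35.4%). Rpl11+/- gave 2 without the filter (4.75%). In footprints, DESeq2 gave 2 in Rpl22+/- (all genes 2.49%), 1 in Rpl10 R98S (4.52%) and 11 in Rps15 H137Y (15.8%). Rps15 H137Y had 3 without the filter (4.02%), and fitting only the genotypes compared gave 1 in Rpl10 R98S (4.88%). In translational efficiency, Rps15 P131S gave 0 with median-of-ratios scaling (5.33%), without the filter (1.98%) and with only the genotypes compared (4.88%). With the clone as a replicate block, in either form, the counts were 4 in P131S, 3 in H137Y and 2 between them. The causes were not tested.

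Leaving out 1 clone gave, in RNA, 0 genes in Rpl5+/- and 1 to 6 in Rpl11+/- (all genes 4.58% to 16.7%). It gave 12 to 17 in Rps15 P131S (38.4% to 45.8%) and 11 to 16 in Rps15 H137Y (33.1% to 41.4%). Between the Rps15 genotypes it gave 6 to 16 (17.5% to 27.8%). In footprints it gave 8 to 17 (9.37% to 15.6%), 2 to 6 (6.4% to 8.44%) and 1 to 4 (1.91% to 4.79%) for the last 3. In translational efficiency it gave 0 to 1 in P131S (2.32% to 4.19%) and 1 to 2 in H137Y (1.75% to 3.63%). The lowest counts between the Rps15 genotypes were without P131S clone 20 in both assays, and in footprints also without H137Y clone 16. In Rps15 H137Y footprints the lowest came without WT clone 3, WT clone 1 or clone 16. With 3 clones a group, an exact permutation test cannot go below 0.1, so every call rests on the spread shared across genes and genotypes.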
